A study of Homo sapiens with 15 samples.

Results

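The let-7 passenger strands are the 3p arms of the human let-7 hairpins. They were taken as the rows whose name starts with hsa-let-7 and ends with -3p in the deposited tables of reads per mature miRNA. This rule uses names and no measured value, but it was chosen with earlier results of these data known. There were 10 such rows among the 2418 miRNAs of the knockdown table, namely hsa-let-7a-3p, hsa-let-7a-2-3p, hsa-let-7b-3p, hsa-let-7c-3p, hsa-let-7d-3p, hsa-let-7e-3p, hsa-let-7f-1-3p, hsa-let-7f-2-3p, hsa-let-7g-3p and hsa-let-7i-3p (the species prefix is left out from here on). The RIP-seq table (RNA immunoprecipitation followed by sequencing) held 6 of them among 2189 miRNAs, and the levels of let-7a-2-3p, let-7b-3p, let-7e-3p and let-7f-1-3p in it were not analysed here.

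The libraries came from FTO1C1, FTO2D4 and FTO3C3, which are clones of the Flp-In T-REx derivative of HEK293, a human embryonic kidney cell line, used without induction. Each clone gave 1 library after scrambled siRNA and 1 after siRNA against FTO, both at 10 nM and harvested after 48 h. From untreated cells of the same clones, 1 small RNA input, 1 precipitate with an antibody against N6-methyladenosine (m6A) and 1 precipitate with unspecific IgG were sequenced per clone. Each group therefore held 3 libraries, 1 per clone. The tests compared libraries within clones and estimated the spread in part from all miRNAs. Very small p-values therefore do not rest on these 3 clones alone. FTO mRNA is not a miRNA, so the depletion of FTO could not be checked in these counts. In bulk RNA, a lower level in each cell and fewer cells with that level cannot be told apart.

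A miRNA hairpin is cut by Dicer into a duplex of a 5p and a 3p strand. One of them, the guide, stays in Argonaute and directs it to mRNAs through the seed, the bases 2 to 8 of the strand, whereas the other strand, the passenger, is mostly degraded. In the let-7 family the 5p strand is the usual guide, and the family is known for its rise during differentiation and for repressing growth genes such as RAS, HMGA2 and LIN28. FTO is a demethylase of m6A in RNA, and the study asked whether miRNAs carry this mark and whether their levels change when FTO is depleted.

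The sequences are shown because the guides share a single seed whereas the passengers do not, and because the mark is placed on adenosines in a preferred sequence. RefSeq (GRCh38.p14) gave the mature sequence of 9 of the 10 strands, all except let-7f-2-3p. Capitals mark the seed.
let-7a-3p: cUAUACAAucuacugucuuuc
let-7b-3p: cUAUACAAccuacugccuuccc
let-7f-1-3p: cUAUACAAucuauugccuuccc
let-7a-2-3p: cUGUACAGccuccuagcuuucc
let-7g-3p: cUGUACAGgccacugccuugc
let-7c-3p: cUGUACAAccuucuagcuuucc
let-7d-3p: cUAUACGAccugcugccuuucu
let-7e-3p: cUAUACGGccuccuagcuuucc
let-7i-3p: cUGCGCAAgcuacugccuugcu
let-7a-5p, a guide: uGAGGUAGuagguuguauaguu

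The 9 passengers carried 6 different seeds, whereas GAGGUAG was the seed of all 8 let-7 guides. UAUACAA was common to let-7a-3p, let-7b-3p and let-7f-1-3p and was also the seed of miR-98-3p, the passenger of the related miR-98. UGUACAG was common to let-7a-2-3p and let-7g-3p, and the other 4 seeds occurred in 1 mature human miRNA each. The identity between pairs of passengers ranged from 50% to 90.9%, with a median of 72.1%. The core of the m6A consensus, AAC or GAC read on the RNA itself, was found in let-7b-3p, let-7c-3p and let-7d-3p, in each of them starting at base 7. That is 3 of 9 (33.3%), beside 36.1% of the 2370 mature human miRNAs of the RefSeq table. The longer form, with A or G before this core and A, C or U after it, was in 0 of 9 passengers and in 20.7% of the 2370. These matches describe letters and say nothing about whether a strand is methylated.

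The strands stem from loci on 8 chromosomes of GRCh38.p14. let-7a-3p is cut from identical ends of the hairpins let-7a-1 (chr9:94176013-94176033, plus strand) and let-7a-3 (chr22:46112800-46112820, plus), so its reads cannot be divided between them. let-7a-1 lies next to let-7f-1 (passenger at chr9:94176409-94176430) and let-7d (chr9:94178895-94178916, inside the long non-coding RNA gene LINC02603), and let-7a-3 lies next to let-7b (chr22:46113745-46113766). let-7a-2-3p (chr11:122146523-122146544, minus) and let-7c-3p (chr21:16539883-16539904, plus) lie inside the host genes MIR100HG and MIR99AHG. let-7e-3p (chr19:51692838-51692859) and let-7g-3p (chr3:52268280-52268300, minus) lie within the bounds of the protein-coding genes SPACA6 and WDR82. The hairpin let-7f-2 (chrX:53557192-53557274, minus) lies within HUWE1, and let-7i-3p (chr12:62603747-62603768, plus) overlaps no other gene of the annotation table. The files themselves give no position, since reads were matched to mature miRNAs and not to a genome. let-7a-2-3p and let-7c-3p, and likewise let-7b-3p and let-7f-1-3p, cover 17 bases of each other, which meets the matching minimum of the authors. A read that met it for several miRNAs went to the one with most matching bases, so a full-length read counts for its own strand, and reads cut short in the bases that differ were not examined.

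The total of miRNA reads ranged from 1991317 to 3876806 in the knockdown libraries and from 186446 to 4973238 in the RIP-seq libraries, the lowest being the IgG library of FTO3C3. The passengers took only 0.0113% to 0.0304% of these reads, which is 551 to 1051 reads per knockdown library but 33 to 699 per RIP-seq library. miR-6080 alone held 58.0% to 71.6% of the IgG reads, 41.3% to 47.8% of the m6A reads and 15.5% to 28.4% of the input reads. Its count of 563404 was the same in the IgG and the m6A library of FTO2D4, so values of the precipitates with totals that leave miR-6080 out are given beside the results below. The summed level of the 3 HEK293 markers (miR-10a-5p, miR-10b-5p and miR-196a-5p) was 310619 to 421640 RPM (reads per 1000000 miRNA reads) in the knockdown libraries and 760.7 to 2017 RPM in the IgG libraries. The 5 blood markers summed to 89.1 to 157 RPM in the knockdown libraries. Their sum was 484 to 909 RPM in the inputs and 867 to 2065 RPM in the m6A libraries. This difference rested mainly on miR-223-3p, with means of 55.7 RPM (scrambled siRNA), 60.7 RPM (FTO siRNA), 584 RPM (input) and 1125 RPM (m6A). Of the others, miR-144-3p reached the most, 43.3 RPM in the knockdown libraries, 45.4 RPM in the inputs and 103 RPM with m6A. The part of these markers in the results below was not tested.

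In cells with scrambled siRNA, 3 passengers stood well above the others. let-7a-3p had 81.4, 116 and 86.4 RPM in FTO1C1, FTO2D4 and FTO3C3, a mean of 94.6 ± 18.8 RPM (SD, n = 3). let-7d-3p had 40.4, 41.4 and 122 RPM, and its high value in FTO3C3 overlapped with let-7a-3p. let-7f-2-3p had 21.2, 24.8 and 21.1 RPM, below let-7d-3p and above let-7a-2-3p in every library. Only these 3 reached 15 RPM, taken as the limit for an expressed miRNA, in all 3 scrambled libraries, and the same 3 did so after FTO siRNA. The other 7 averaged between 3.10 RPM (let-7e-3p) and 10.7 RPM (let-7a-2-3p) and overlapped with their neighbours in the order, except that let-7c-3p was above let-7g-3p in all libraries. let-7f-1-3p, whose hairpin gives the same guide as that of let-7f-2-3p, had 3.37 ± 0.997 RPM (SD, n = 3).

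Set against its own guide, the 3p strand was the rarer arm of 7 of the 8 let-7 names in all 6 knockdown libraries, and let-7d was the exception. With scrambled siRNA, the 3p share of the reads of both arms was 0.194% ± 0.0186 for let-7f and 10.2% ± 6.72 for let-7b (SD, n = 3), the lowest and highest of the 7. For let-7d, the 3p strand had 147, 102 and 242 reads against 84, 56 and 42 for the 5p strand. Its share was 63.6%, 64.6% and 85.2%, with 95% Wilson intervals of 57.3% to 69.6%, 56.8% to 71.6% and 80.6% to 88.9%. The name passenger thus goes against the counts for let-7d-3p in all 6 knockdown libraries. In the untreated inputs of the RIP-seq it did so in FTO1C1 and FTO2D4 only, with 3p shares of 64.3% and 52.3%, whereas FTO3C3 had 3 reads of the 3p and 12 of the 5p strand (20%). These intervals cover counting error only, since reads copied by PCR without molecular identifiers are not independent molecules.

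**Figure D1:**
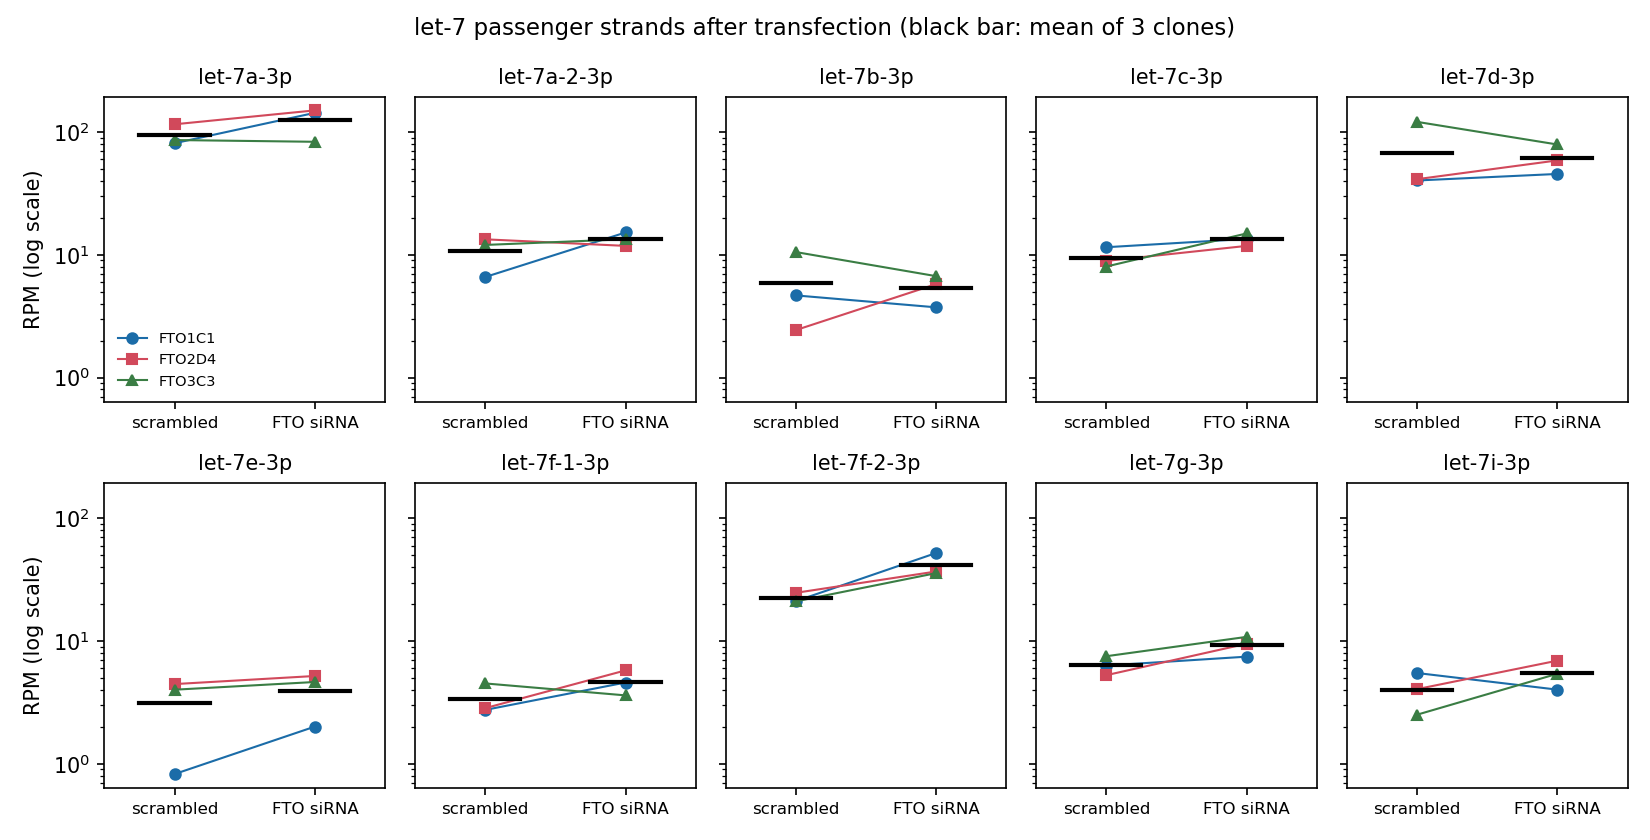
Level of each let-7 passenger strand in RPM (log axis) after scrambled and FTO siRNA, with a line for each clone and a black bar for the mean of 3. let-7f-2-3p is the strand whose line rises in all clones without overlap of the groups and which passed the test, whereas let-7d-3p falls in FTO3C3 and rises in the other clones.

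After FTO siRNA, 1 of the 10 passengers rose and none fell. This was let-7f-2-3p, which went from 77, 61 and 42 reads in FTO1C1, FTO2D4 and FTO3C3 to 182, 128 and 139 reads. Its level rose from 22.3 ± 2.10 to 41.7 ± 9.19 RPM (SD, n = 3), with ratios of 2.47, 1.49 and 1.70 in the clones, and the groups did not overlap. The fitted change was 1.86-fold (log2 0.89, SE 0.21, edgeR adjusted p = 0.0377). Among all 2374 miRNAs tested, 5.48% were called and 4.97% were called higher, so 1 of 10 is near this background. The median change of all miRNAs was 0.29 on the log2 scale and that of the passengers 0.40. The call was lost when the libraries were scaled with TMM factors, which bring the median of all miRNAs to about 0 (log2 0.60, edgeR adjusted p = 0.163), with DESeq2 (0.59, adjusted p = 0.227), without the clone block (0.90, edgeR adjusted p = 0.0785) and without FTO1C1 (0.67, edgeR adjusted p = 0.328). Without FTO1C1, 0 of all 2363 miRNAs tested were called, and without the clone block 41 of 2374 were.

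The other 9 passengers did not pass the test. let-7c-3p was at 11.5, 8.93 and 8.03 RPM with scrambled and at 13.5, 11.8 and 14.96 RPM with FTO siRNA, so that its groups did not overlap either (log2 0.48, SE 0.24, edgeR adjusted p = 0.232). The values of let-7g-3p were higher in every clone, by 1.18, 1.81 and 1.44 times, but the groups overlapped (log2 0.52, SE 0.26, edgeR adjusted p = 0.238). let-7a-3p, the most abundant passenger, had ratios of 1.77, 1.30 and 0.968, which go to both sides of 1. let-7a-2-3p had 2.31, 0.884 and 1.11, a spread that rests on FTO1C1. let-7d-3p had 1.13, 1.42 and 0.654 and a fitted change of 0.01 on the log2 scale, which became -0.28 with TMM factors. let-7b-3p had a fitted change of -0.07 (SE 0.37) on 6 to 26 reads per library, and the changes of let-7e-3p, let-7f-1-3p and let-7i-3p, with 3 to 24 reads, lay between 0.37 and 0.50 with errors of 0.37 to 0.38.

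Among the 8 guides, 2 rose and none fell, beside 4.97% of all miRNAs called higher, with a median change of 0.28 on the log2 scale. let-7b-5p rose 2.31-fold (log2 1.21, SE 0.18, edgeR adjusted p = 0.00750) and let-7i-5p 1.67-fold (log2 0.74, SE 0.17, edgeR adjusted p = 0.0348). The paper reports that quantitative RT-PCR did not bear out the rise of let-7b. The passengers of these guides, let-7b-3p and let-7i-3p, were at -0.07 and 0.37, and neither was called. Of the 13 arms of miR-99a, miR-99b, miR-100, miR-125a, miR-125b and miR-4763, several of which are neighbours of let-7 hairpins, 1 rose (miR-4763-3p, log2 0.98) and none fell, near the 4.97% of all miRNAs. Neither arm of miR-98 was called.

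The shift of the 3p against the 5p arm within the same libraries does not depend on the scaling of the libraries. It was tested by edgeR as an interaction of arm and siRNA for the 726 names with enough reads on both arms, of which 1.38% were called. None of the 8 let-7 names was called by edgeR, and 3 had an unadjusted p under 0.05. The 3p share of let-7f was 0.173%, 0.198% and 0.210% with scrambled and 0.337%, 0.309% and 0.269% with FTO siRNA, without overlap, a shift of 0.67 on the log2 scale (SE 0.20, edgeR adjusted p = 0.150). With a clone left out it was 0.50 to 0.81 and passed only without FTO3C3 (edgeR adjusted p = 0.00384). The shift was 0.71 for let-7f-2-3p alone (edgeR adjusted p = 0.135) and 0.32 for let-7f-1-3p alone (edgeR adjusted p = 0.764). The other shifts with an unadjusted p under 0.05 were those of let-7a at 0.49 (edgeR adjusted p = 0.307) and let-7b at -1.22 (edgeR adjusted p = 0.237), the latter with 6 to 26 reads on the 3p arm. DESeq2 was not run on arms.

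In untreated cells, the inputs of the RIP-seq held mainly let-7a-3p and let-7f-2-3p. let-7a-3p had 132, 185 and 116 RPM and let-7f-2-3p 88.7, 60.3 and 101 RPM in FTO1C1, FTO2D4 and FTO3C3, without overlap. The other 4 averaged 8.07 (let-7c-3p), 8.05 (let-7d-3p), 4.36 (let-7g-3p) and 2.53 RPM (let-7i-3p), on 3 to 23 reads per library, and each overlapped with its neighbour in this order. let-7a-3p made up 57.0% ± 8.04 of the reads of the 6 passengers in the inputs and 5.82% ± 1.76 in the m6A libraries (SD, n = 3). let-7d-3p made up 3.04% ± 2.41 and 41.6% ± 7.96, so that the leading strand was another one after precipitation.

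**Figure D2:**
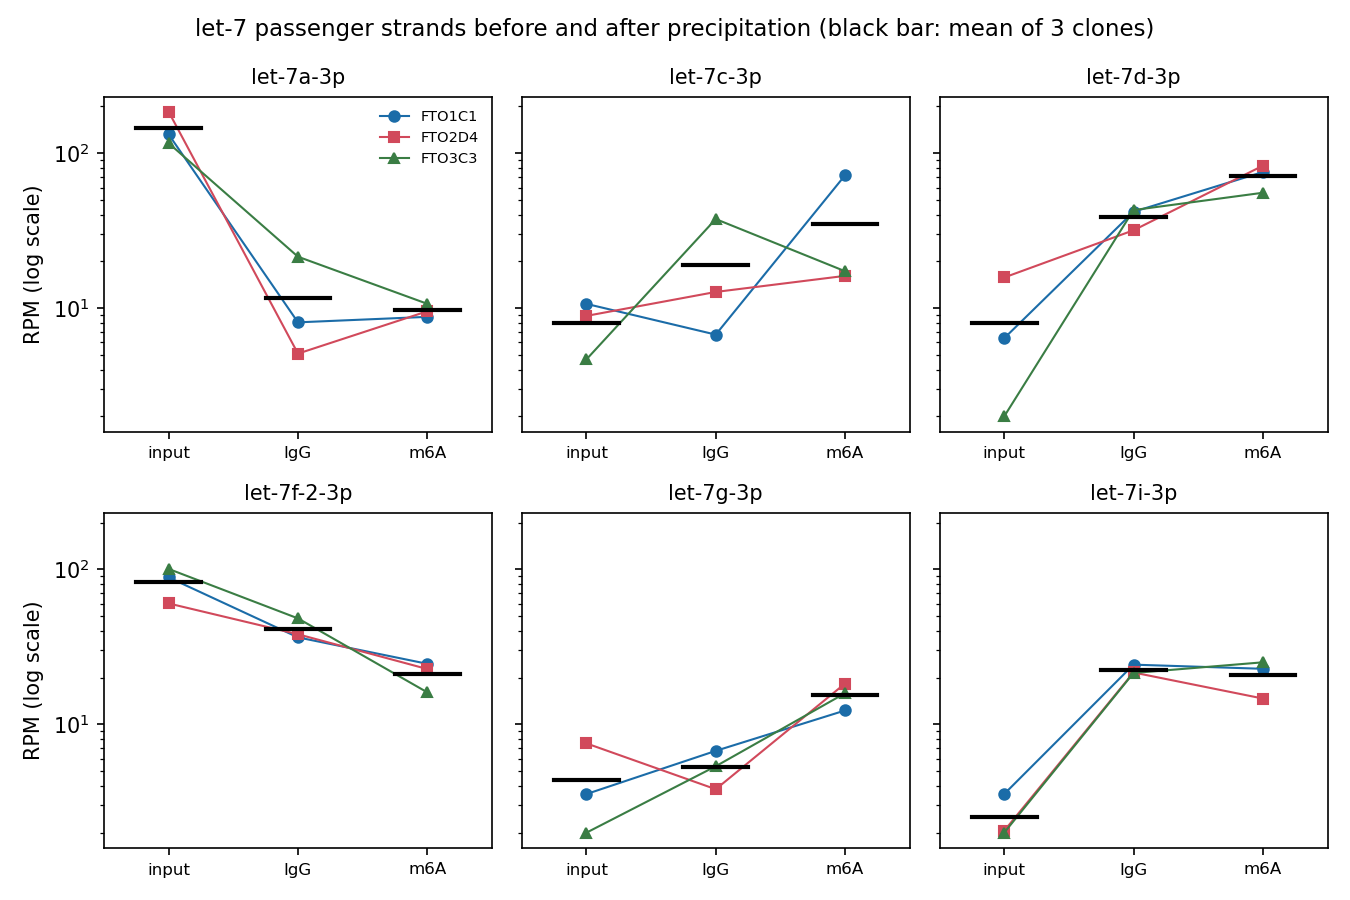
Level in RPM (log axis) of the 6 passengers present in the RIP-seq table, in input, IgG and m6A libraries, with a line for each clone and a black bar for the mean of 3. let-7a-3p falls from over 100 RPM in each input to 5.08 to 21.5 RPM in both kinds of precipitate, whereas let-7d-3p and let-7i-3p are higher in all precipitates than in the inputs.

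Against the inputs, all 6 passengers were called in the m6A libraries, 4 higher and 2 lower. Most miRNAs were called in this comparison, with 66.8% higher and 10.5% lower (77.3% in all, 2174 tested) and a median change of 1.65 on the log2 scale. let-7a-3p had 8.78, 9.54 and 10.7 RPM in the m6A libraries of FTO1C1, FTO2D4 and FTO3C3, and fell 14.3-fold from 144 ± 36.1 to 9.66 ± 0.944 RPM (log2 -3.83, SE 0.46, edgeR adjusted p = 4.99e-08). let-7f-2-3p had 24.6, 22.7 and 16.1 RPM and fell 3.97-fold (log2 -1.99, SE 0.43, edgeR adjusted p = 0.000147). No m6A library overlapped with an input for these strands, the most abundant in the inputs. Both stayed called lower with other scalings, but the size moved, for let-7a-3p from -3.37 with totals without miR-6080 to -5.41 with TMM factors, and for let-7f-2-3p from -1.52 to -3.55.

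The 4 strands that rose were the rare ones of the inputs. The filter on low counts asks for enough reads in as many libraries as a group holds, whichever group they belong to. None of the 4 met it by the inputs alone, so they were tested only because they were higher with m6A. The direction of these calls was thus largely set by the filter. let-7d-3p had 6.39, 15.8 and 2.00 RPM in the inputs and 75.5, 82.9 and 55.5 RPM in the m6A libraries, a 10.2-fold rise (log2 3.35, SE 0.47, edgeR adjusted p = 5.23e-07). let-7i-3p had 3.55, 2.06 and 2.00 RPM in the inputs and 22.8, 14.7 and 25.1 RPM in the m6A libraries, an 8.18-fold rise (log2 3.03, SE 0.52, edgeR adjusted p = 8.61e-06). The input values of let-7i-3p rest on 5, 3 and 3 reads. The change of let-7d-3p was 1.82 with TMM factors, 1.87 with DESeq2, 3.81 with totals without miR-6080 and 4.05 without FTO2D4, called each time. let-7g-3p (log2 1.91, SE 0.51) and let-7c-3p (1.87, SE 0.45) rose by about the median of all miRNAs. With TMM factors, which moved that median to 0.10, they came to 0.39 and 0.36 and were no longer called, which left 2 passengers higher and 2 lower. With totals without miR-6080, which gave a median of 2.11, all 6 stayed called, with let-7g-3p at 2.36, let-7c-3p at 2.32 and let-7i-3p at 3.50. With DESeq2, 1 was higher (let-7d-3p) and 2 were lower, and let-7i-3p missed the threshold at 1.48 (adjusted p = 0.0730).

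In the IgG libraries, 3 of the 5 passengers tested were called against the inputs, 2 higher and 1 lower. Of all 1941 miRNAs tested, 36.8% were called higher and 21.8% lower (58.6% in all), and their median change was 0.49 on the log2 scale. let-7a-3p had 8.09, 5.08 and 21.5 RPM with IgG, on 6, 4 and 4 reads, and fell 15.8-fold (log2 -3.98, SE 0.59, edgeR adjusted p = 1.03e-10). let-7i-3p had 24.3, 21.6 and 21.5 RPM, an 8.48-fold rise (log2 3.08, SE 0.64, edgeR adjusted p = 5.16e-06), and let-7d-3p had 41.8, 31.8 and 42.9 RPM, a 5.07-fold rise (log2 2.34, SE 0.54, edgeR adjusted p = 5.51e-05). With totals without miR-6080, which gave a median of 1.67, let-7a-3p, let-7i-3p and let-7d-3p were at -2.85, 4.21 and 3.47, and with TMM factors at -4.49, 2.59 and 1.82, called each time, and without FTO2D4 let-7d-3p was at 3.28 and let-7a-3p at -3.35. The levels of let-7f-2-3p with IgG were 36.4, 38.1 and 48.3 RPM, all below the inputs, but the test was missed (log2 -0.996, edgeR adjusted p = 0.0662). With totals that leave miR-6080 out, its change was 0.15, whereas with TMM factors it was -1.52 and called, which made 2 passengers higher and 2 lower. let-7c-3p was at 0.83 (edgeR adjusted p = 0.220), and passed only with totals without miR-6080 (1.96, edgeR adjusted p = 0.000471). let-7g-3p had 1 to 5 reads per IgG library and was below the filter on low counts. let-7d-3p and let-7i-3p, both rare in the inputs, passed that filter only through the IgG libraries, which favoured a rise. let-7a-3p, rare with IgG, passed it only through the inputs, which favoured a fall.

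The comparisons of the precipitates share libraries, so their values are given side by side and do not count as separate evidence. let-7a-3p was lower than the inputs by -3.83 (m6A) and -3.98 (IgG) on the log2 scale, let-7i-3p higher by 3.03 and 3.08, and let-7d-3p higher by 3.35 and 2.34.

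**Figure D3:**
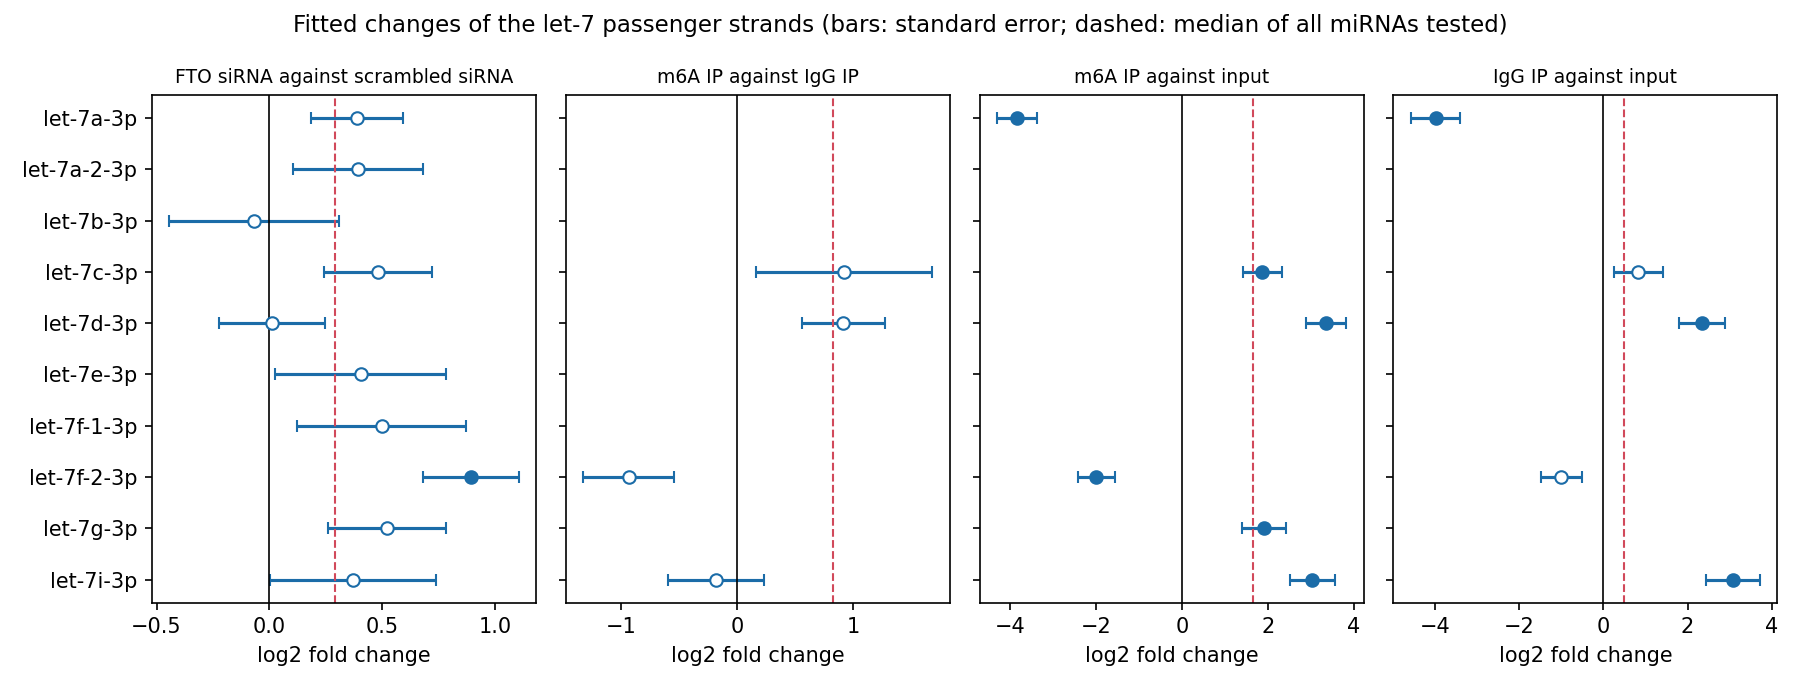
Fitted log2 fold changes (x axes, each with its own range) of the passengers in the 4 comparisons, with bars for the standard error, filled points for an adjusted p under 0.05 and a dashed line at the median of all miRNAs tested. let-7f-2-3p is the filled point for FTO siRNA, and no point is filled for m6A against IgG.

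The direct comparison of m6A with IgG asks which miRNAs the antibody bound beyond the unspecific background. None of the 4 passengers tested was called by edgeR, whereas 39.8% of the 2054 miRNAs tested were, 38.6% higher and 1.27% lower. An unadjusted p under 0.05 was reached by let-7d-3p and let-7f-2-3p. let-7d-3p was higher with m6A in each clone, by 1.81, 2.61 and 1.29 times (log2 0.92, SE 0.36, edgeR adjusted p = 0.0717), close to the median of 0.83 of all miRNAs, and its groups did not overlap. With DESeq2, in which that median was 0.04, let-7d-3p was at 0.12, and with totals without miR-6080, at a median of 0.10, it was at 0.21. let-7f-2-3p was lower with m6A in each clone, at 0.675, 0.597 and 0.333 times the IgG level (log2 -0.94, SE 0.39, edgeR adjusted p = 0.0895). It was the only passenger called under any of the alternatives run, always lower, with TMM factors (-1.69, edgeR adjusted p = 0.00727), DESeq2 (-1.74, adjusted p = 0.00601), no clone block (-0.96, edgeR adjusted p = 0.0451) and totals without miR-6080 (-1.64, edgeR adjusted p = 0.00961).

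The values of let-7i-3p were 24.3, 21.6 and 21.5 RPM with IgG and 22.8, 14.7 and 25.1 RPM with m6A, which overlap (log2 -0.18, SE 0.41, edgeR adjusted p = 0.751; -0.89 with totals without miR-6080). let-7c-3p had ratios of 10.7, 1.27 and 0.461 in FTO1C1, FTO2D4 and FTO3C3. Its fitted change of 0.92 (SE 0.76, edgeR adjusted p = 0.371) rests on FTO1C1 and was -0.35 without that clone, and 0.25 with totals without miR-6080. let-7a-3p and let-7g-3p were below the filter, and without a filter they came to 0.02 (edgeR adjusted p = 0.984) and 1.56 (edgeR adjusted p = 0.0659). let-7g-3p was above IgG in all clones, by 1.82, 4.81 and 2.96 times, but on 5, 3 and 1 IgG reads. None of the 6 passengers reached 100 RPM in all 3 m6A libraries, the minimum set for an enriched miRNA. By letters alone, let-7c-3p and let-7d-3p (both 0.92) hold AAC or GAC, and let-7i-3p (-0.18) does not. Nor do let-7a-3p (0.02) and let-7g-3p (1.56), whose values are from the fit without a filter. let-7f-2-3p had no sequence to search. A link between the core and the change was not tested.

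All 7 let-7 guides tested were called higher with m6A than with IgG, by 2.62 (let-7c-5p) to 5.58 (let-7f-5p) on the log2 scale with a median of 4.37. Of these, let-7b-5p, let-7c-5p and let-7d-5p, with 1 to 8 reads per IgG library, passed the filter on low counts only through the m6A libraries. The remaining guide, let-7i-5p, was below the filter. Its ratios were 1.95, 5.58 and 1.20 in FTO1C1, FTO2D4 and FTO3C3, and its groups overlapped. The passengers ranged from -0.94 to 0.92 with a median of 0.37. The summed level of the 8 guides was 148 to 333 RPM in the IgG, 3532 to 6572 RPM in the input and 5347 to 10782 RPM in the m6A libraries. That of the 6 passengers was 113 to 177, 227 to 280 and 141 to 216 RPM. Of 11 arms of neighbouring miRNAs tested, 5 were called higher and none lower, near the 38.6% of all miRNAs called higher, and miR-98-5p was called higher (3.53, edgeR adjusted p = 0.00137) whereas miR-98-3p was not (0.66, edgeR adjusted p = 0.315). miR-98-5p, with 0 to 4 reads per IgG library, passed the filter only through the m6A libraries, which favoured a rise. The same holds for miR-125a-5p, miR-125b-2-3p and miR-4763-5p among the neighbours called higher.

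**Figure D4:**
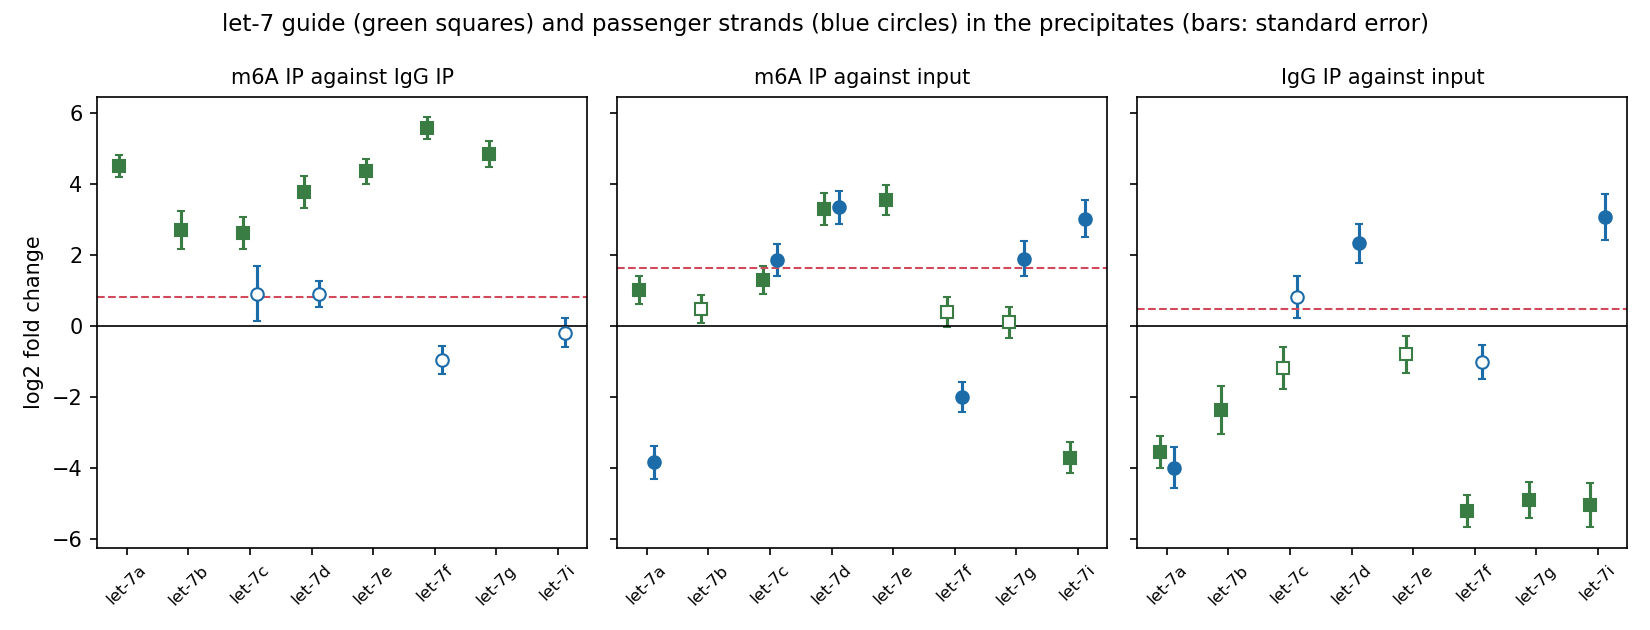
Fitted log2 fold changes (y axis) of the let-7 guides (green squares) and passengers (blue circles) by name in the 3 comparisons of the precipitates, with bars for the standard error, filled symbols for an adjusted p under 0.05 and a dashed line at the median of all miRNAs tested. The 7 guides tested lie between 2.62 and 5.58 for m6A against IgG, and the passengers tested between -0.94 and 0.92. let-7i-5p was below the filter on low counts there.

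The difference between the strands of a hairpin was tested directly as a shift of the 3p against the 5p arm from IgG to m6A. In these libraries the 3p arm of let-7a is let-7a-3p alone and that of let-7f is let-7f-2-3p alone. Of 531 names tested, 35.0% were called, 23.9% with a lower and 11.1% with a higher 3p share. In 2 of the 3 let-7 names tested the 3p share was called lower with m6A. For let-7f the 3p arm had 27, 30 and 9 reads and the 5p arm 44, 77 and 23 reads with IgG, a 3p share of 38.0%, 28.04% and 28.1%. With m6A the share was 0.736%, 0.615% and 0.240%, a shift of -6.52 on the log2 scale (SE 0.52, edgeR adjusted p = 6.81e-06). For let-7d the share was 93.9%, 83.3% and 80.0% with IgG and 55.1%, 50% and 36.4% with m6A, a shift of -2.84 (SE 0.63, edgeR adjusted p = 0.00523), although without FTO2D4 the adjusted p was 0.0526. The 5p arm of let-7d had only 2, 5 and 2 reads with IgG. It passed the filter on low counts only through the m6A libraries, which favoured a lower 3p share. let-7c was at -1.48 (SE 0.87, edgeR adjusted p = 0.206), and was called without FTO1C1 (-2.87, edgeR adjusted p = 0.0277). Without the filter, let-7a (-4.51) and let-7g (-3.22) were also called lower, which made 4 of 6, and let-7i was at -1.61 (edgeR adjusted p = 0.154).

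Against the inputs, the arms moved in different directions between the let-7 names. With m6A, 4 of 6 names were called, 2 with a lower and 2 with a higher 3p share, beside 30.8% and 23.7% of all 604 names (54.5% in all). The 3p share of let-7a was 19.3%, 12.5% and 11.8% in the inputs and 0.761%, 0.471% and 0.474% with m6A, a shift of -4.88 on the log2 scale (SE 0.36, edgeR adjusted p = 0.000110). let-7f was called lower at -2.40 (SE 0.50, edgeR adjusted p = 0.00589) and let-7g higher at 1.91 (SE 0.44, edgeR adjusted p = 0.00902), the latter at an adjusted p of 0.0599 without FTO3C3. The largest shift of the 6 was that of let-7i. Its 5p strand had 192, 370 and 275 reads in the inputs but 6, 29 and 64 with m6A, while the 3p strand went from 5, 3 and 3 to 13, 20 and 125 reads. The 3p share of let-7i thus rose from 1.47% ± 0.932 to 58.5% ± 15.3 (SD, n = 3), a shift of 6.76 (SE 0.55, edgeR adjusted p = 0.000141). let-7i-5p itself was the only guide called lower with m6A than in the inputs (log2 -3.70, SE 0.45, edgeR adjusted p = 5.02e-08), while 4 other guides were called higher. Of all miRNAs, 10.5% were called lower and 66.8% higher in this comparison. let-7c (0.52) and let-7d (0.11) were not called. The 3p arms of let-7g and let-7i, rare in the inputs, passed the filter on low counts only through the m6A libraries, which favoured a higher 3p share.

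With IgG, 2 of the 4 let-7 names tested were called, both with a higher 3p share than the inputs, beside 30.7% of 505 names called higher and 25.3% called lower (56.0% in all). The share of let-7i was 81.8%, 85.0% and 66.7% on 18, 17 and 4 reads of the 3p arm, with 95% Wilson intervals of 61.5% to 92.7%, 64.0% to 94.8% and 30.0% to 90.3%, a shift of 8.09 on the log2 scale (SE 0.81, edgeR adjusted p = 5.60e-21). The 3p arm of let-7i, rare in the inputs, passed the filter on low counts only through the IgG libraries. Its 5p arm, with 4, 3 and 2 reads with IgG, passed only through the inputs. Both favoured a higher 3p share with IgG. let-7f shifted by 4.22 (SE 0.64, edgeR adjusted p = 4.00e-10), from 2.60% ± 1.10 to 31.4% ± 5.74 (SD, n = 3). let-7a was at -0.39, with a share of 14.5% ± 4.17 in the inputs and 12.9% ± 6.95 with IgG, and let-7c at 1.92 (edgeR adjusted p = 0.0521). In the same libraries 5 of the 7 guides tested were called lower than in the inputs and none higher, beside 21.8% and 36.8% of all miRNAs. The median change of these guides was -3.53, while the passengers tested had a median of 0.83. The guides let-7b-5p, let-7c-5p and let-7i-5p, with 1 to 8 reads per IgG library, passed the filter only through the inputs. This favoured a fall, and let-7b-5p and let-7i-5p are among those called lower. Of the passengers, let-7d-3p and let-7i-3p passed it only through the IgG libraries and let-7a-3p only through the inputs. Both medians thus depend in part on the filter.

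**Figure D5:**
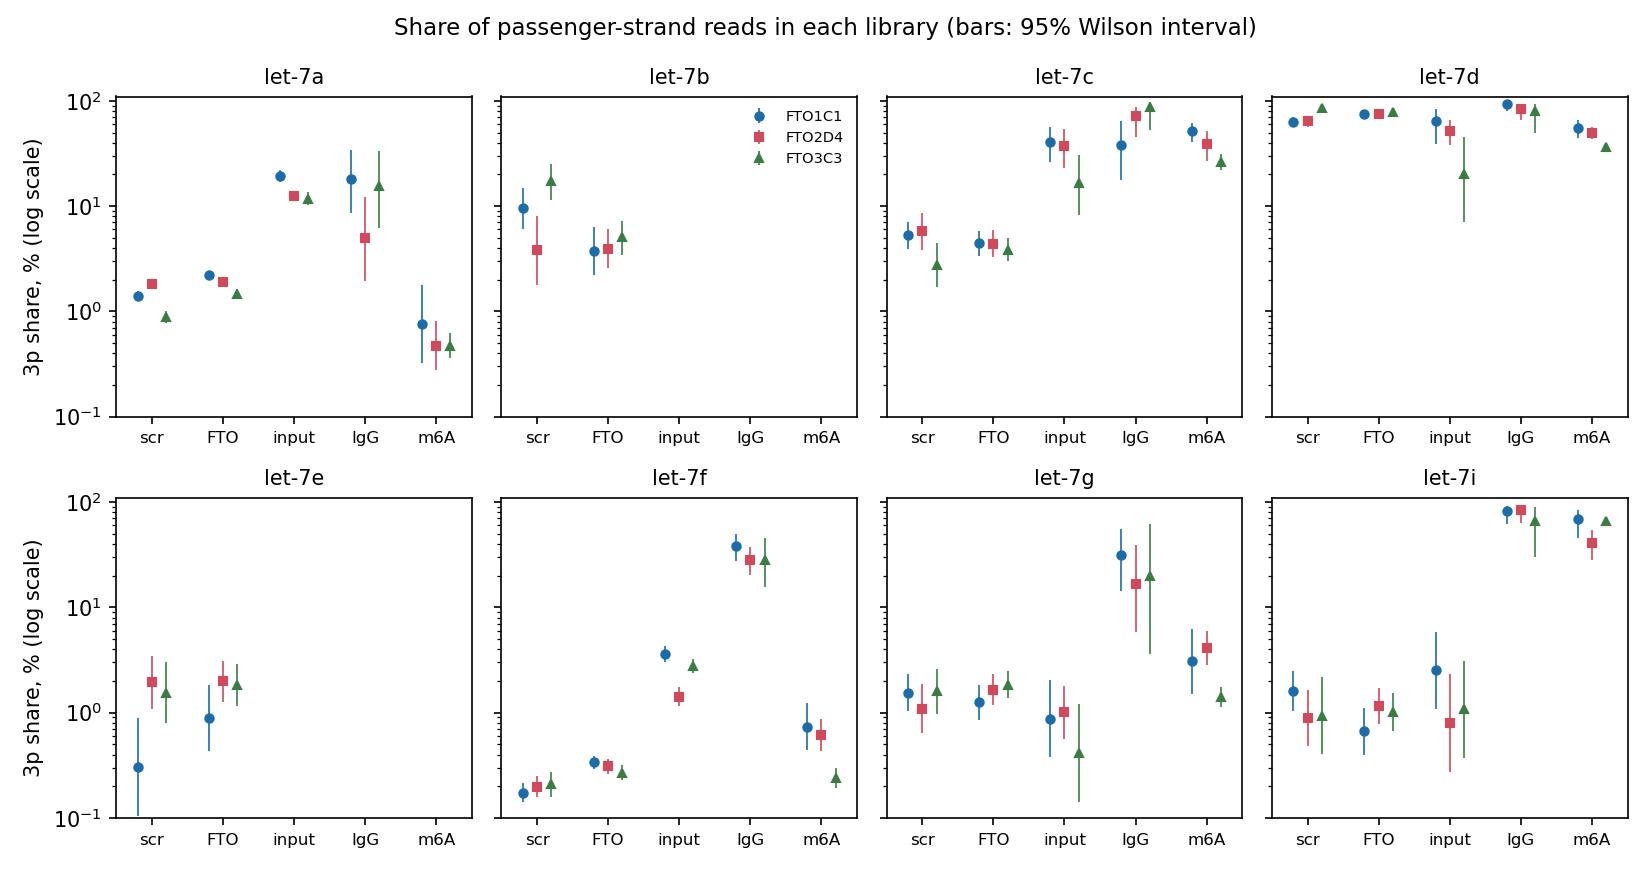
Share of 3p reads among the reads of both arms (percent, log axis) for each let-7 name, in scrambled (scr), FTO siRNA, input, IgG and m6A libraries, with a point for each clone and bars for the 95% Wilson interval, let-7b and let-7e being shown for the knockdown libraries alone. let-7d is at 63.6% or more in all knockdown libraries, and let-7i goes from at most 2.54% in the inputs to at least 40.8% in every precipitate.

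Over the 9 RIP-seq libraries, the summed level of the 6 passengers was most alike that of miR-18a-5p (Pearson's r = 0.921), miR-29a-3p (0.920), miR-181d-5p (0.919), miR-30a-5p (0.917) and miR-892a (0.916), of 1880 miRNAs compared by log2(RPM + 1). These 9 points fall into input, IgG and m6A libraries and share their totals, so the values are a description of the groups.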

How the data were processed

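Small RNA was size-selected, sequenced and, for the RIP-seq, precipitated before library preparation. The authors trimmed adapters with cutadapt and matched reads to the mature human miRNAs of miRBase by maximal exact matches of at least 7 bases that covered at least 17 bases. They deposited raw counts of reads per miRNA, without normalization and with no genome build. Library sizes were the total miRNA reads (186446 to 4973238), which limits values of a few reads.

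RPM, 3p shares with 95% Wilson intervals and edgeR quasi-likelihood tests (glmQLFit, glmQLFTest) were computed from these counts, with filterByExpr at a minimum count of 10, the clone as a block and Benjamini-Hochberg adjustment at 0.05 over all miRNAs tested. An arm was the sum of the numbered names of a miRNA, such as let-7a-3p and let-7a-2-3p. The test of arm balance had library, arm, arm by clone and arm by group as terms. Tests were checked on simulated counts. All 10 strands are named, and the lists are the 8 guides, the miR-98 arms, 13 arms of neighbouring miRNAs and marker miRNAs of HEK293, blood, muscle, liver, endothelium and neurons. The strands, lists and tests were chosen with earlier results of these data known. The clone pairs the libraries, and deviations from the group mean correlated within pairs at 0.121 to 0.189 in the knockdown, 0.0117 to 0.0370 for m6A and IgG, -0.0711 to -0.0284 for m6A and input and -0.0273 to 0.0661 for IgG and input. Libraries of a group differed by more than sampling noise (chi-square per degree of freedom 6.11 to 145), so none was counted as a copy.

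The alternatives were TMM factors, DESeq2, no filter, no clone block, totals without miR-10a-5p or miR-6080, all 9 RIP-seq libraries in 1 fit, other RPM cutoffs and each clone left out. Python 3.11.15 with pandas 2.3.3, numpy 2.4.6, matplotlib 3.10.9 and scipy 1.17.1 was used for tables and plots, and R 4.3.3 with DESeq2 1.42.0 and edgeR 4.0.16 for the fits.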

Additional observations from a re-analysis of the deposited data

How the results depend on the processing

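Of the alternative values computed for the let-7 passengers, 283 kept their direction and side of the threshold, 11 lost the call, 14 gained it and 21 changed sign. After FTO siRNA, the number of passengers called went from 1 to 0 with TMM factors, with DESeq2 (which gave an adjusted p to only 3 of them) and without the replicate block, and was 0 to 1 with a clone left out. For m6A against IgG it went from 0 to 1 with TMM factors, DESeq2, no replicate block and totals without miR-6080, each time let-7f-2-3p. For m6A against input it was 3 of 6 with DESeq2. The names with a shifted arm balance numbered 4 and 5 without a filter for m6A against IgG and for IgG against input, where newly tested names and, for IgG against input, let-7c (edgeR adjusted p = 0.0473) were added, 1 to 4 and 2 to 4 with a clone left out, and 0 to 1 for FTO siRNA. The block changed no other number of calls by over 1.5 times, but without it let-7f-2-3p and the arm balance of let-7c were called for IgG against input. The cause of the other changes was not tested.

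The following values changed sign. let-7d-3p after FTO siRNA was at -0.28 with TMM factors, -0.28 with DESeq2, -0.13 without the replicate block, -0.0024 without miR-10a-5p and -0.23 to 0.34 with a clone left out. The ranges with a clone left out were -0.015 to 0.69 for let-7a-2-3p and -0.51 to 0.34 for let-7b-3p after FTO siRNA, -0.35 to 1.82 for let-7c-3p and -0.33 to 0.042 for let-7i-3p in m6A against IgG, and -0.018 to 1.60 for let-7c-3p in IgG against input. For the arm balance after FTO siRNA they were -0.33 to 0.078 for let-7c, -0.0081 to 0.71 for let-7d, -0.056 to 0.40 for let-7g and -0.72 to 0.26 for let-7i, and those of let-7d in m6A against input and let-7a in IgG against input were -0.28 to 0.35 and -0.74 to 0.15. let-7f-2-3p in IgG against input was at 0.15 with totals without miR-6080. The arm balance of let-7d for m6A against input was at -0.016 without the replicate block. Depth limits the values of let-7a-3p and let-7g-3p with IgG (1 to 6 reads) and of let-7d-3p, let-7g-3p and let-7i-3p in the inputs (3 reads in FTO3C3).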

Other observations

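The count of 563404 reads for miR-6080 stood in both the IgG and the m6A column of FTO2D4, and no other count above 1000 reads was the same in any pair of RIP-seq libraries. The 3p shares of the let-7 names given above are formed from the reads of both arms alone and do not contain that count. The filter on low counts, which set the names tested for a shift of arms, did use the library totals. The endothelial marker miR-126-3p was at 115 to 247 RPM in the knockdown libraries and at 34.3 to 56.6 RPM in the IgG libraries, and the neuronal marker miR-124-3p at 5.33 to 7.10 RPM in the inputs and 8.90 to 42.9 RPM with IgG. The muscle markers in the table summed to 18.7 to 32.5 RPM in the knockdown and 12.1 to 103 RPM in the RIP-seq libraries, and the liver marker miR-122-5p was at 5.22 to 7.03 RPM in the knockdown libraries.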
